A study of Mus musculus with 4 samples.

Results

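Tensins, the integrin subunits that epithelial cells use to hold on to laminin, and chains of the basement membrane protein laminin-332 were examined in mouse lung tumours. The 9 genes (Tns1, Tns3, Tns4, Itga2, Itga3, Itga6, Itgb4, Lama3 and Lamb3) were found by symbol among the 24391 genes of each count file. All 9 were among the 16001 genes that passed the filter on low counts. They were chosen with the difference between the groups already known. Tns4 was selected on its fold change and adjusted p in these same libraries, and the others were chosen by their family or role, with their values known, to set beside it. The members' values in this contrast are therefore given as a description, with no test.

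The study compared 2 samples of K-Ras tumours with 2 samples of K-Ras Mll4-/- tumours. All 4 tumour samples carried K-Ras LSL-G12D, a mutant K-Ras allele held silent by a stop cassette until Cre recombinase removes it, and the second group also carried Mll4 fl/fl, floxed alleles of the gene now named Kmt2d, which encodes a histone H3 lysine methyltransferase. The Cre used, the strain and the age of the mice are not given in the sources used here, nor whether the 2 samples of a group came from different mice, so the spread between samples may be technical. Dissociated tumour cells were depleted of CD45-bearing leukocytes before RNA extraction, so the libraries hold tumour cells with the stromal cells and leukocytes that remained. Each library held between 26683033 and 36677987 reads assigned to genes. K-Ras replicate 2 stood apart in airway transcripts, with ciliated cell markers summing to 765 CPM (gene counts divided by a library size scaled with TMM, the trimmed mean of M values) against 68.4 to 129 CPM in the other 3 samples, and club cell markers to 4753 against 721 to 1161 CPM. Kmt2d itself was at 367 and 317 CPM in the K-Ras Mll4-/- samples and at 395 and 526 CPM in the K-Ras samples, a difference of -0.43 in log2 units (SE 0.21, edgeR adjusted p = 0.302), or -0.22 without K-Ras replicate 2. The loss of Mll4 therefore rests on the labels.

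Tensins are adaptor proteins of focal adhesions, the sites where integrins couple the cell to its matrix. Tns1, Tns2 and Tns3 join the tails of beta integrins to actin filaments, whereas Tns4, also called Cten, keeps the carboxy-terminal domains that bind integrin tails and lacks the amino-terminal actin-binding part. Laminin-332 is the laminin of epithelial basement membranes, and Lama3 and Lamb3 encode its alpha and beta chains. Its epithelial receptors are the integrins made of Itga3 with Itgb1 and of Itga6 with Itgb4, the latter being the core of the hemidesmosome, a junction that anchors keratin filaments to the basement membrane.

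Promoters are shown for Tns1 and Tns3 and for the integrin and the laminin chain of the 9 with the largest fold change after Tns4, so that their make-up can be compared. The sequences come from RefSeq (GRCm38.p6) and run from 250 bases before the annotated start to 50 after it, 5′ to 3′, with CpG pairs in capitals. Of the 9 genes, 5 had a promoter that could be shown here. These were Tns1, Tns3, Itga2, Itga3 and Lamb3, so the promoter of Tns4 was not examined.
Tns1 promoter, chr1:74124499-74124798, minus strand: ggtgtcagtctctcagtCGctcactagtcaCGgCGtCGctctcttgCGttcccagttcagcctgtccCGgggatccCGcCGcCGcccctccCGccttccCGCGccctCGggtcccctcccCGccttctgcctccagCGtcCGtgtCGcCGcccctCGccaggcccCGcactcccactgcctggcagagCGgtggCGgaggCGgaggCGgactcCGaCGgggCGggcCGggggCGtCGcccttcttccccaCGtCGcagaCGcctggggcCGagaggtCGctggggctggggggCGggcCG
Tns3 promoter, chr11:8664486-8664785, minus strand: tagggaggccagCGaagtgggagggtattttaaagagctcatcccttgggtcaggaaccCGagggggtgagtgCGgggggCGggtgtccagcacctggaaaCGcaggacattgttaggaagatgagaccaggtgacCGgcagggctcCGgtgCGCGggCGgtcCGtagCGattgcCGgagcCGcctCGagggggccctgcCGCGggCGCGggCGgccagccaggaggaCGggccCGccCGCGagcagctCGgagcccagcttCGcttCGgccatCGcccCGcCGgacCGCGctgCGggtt
Itga2 promoter, chr13:114932051-114932350, minus strand: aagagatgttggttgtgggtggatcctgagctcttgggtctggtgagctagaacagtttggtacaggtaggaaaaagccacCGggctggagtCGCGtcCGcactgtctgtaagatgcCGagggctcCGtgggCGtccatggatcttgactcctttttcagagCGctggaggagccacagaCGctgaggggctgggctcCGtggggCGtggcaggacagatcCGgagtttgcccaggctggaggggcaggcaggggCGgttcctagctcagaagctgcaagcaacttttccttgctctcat
Lamb3 promoter, chr1:193301744-193302043, plus strand: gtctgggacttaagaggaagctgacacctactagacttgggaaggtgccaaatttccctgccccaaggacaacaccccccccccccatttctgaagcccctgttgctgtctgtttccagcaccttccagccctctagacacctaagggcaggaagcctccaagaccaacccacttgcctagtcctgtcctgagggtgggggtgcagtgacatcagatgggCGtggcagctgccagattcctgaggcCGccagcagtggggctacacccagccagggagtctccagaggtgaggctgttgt
Tns1 and Tns3 start in CpG-rich sequence, with 37 and 33 CpG pairs, more than 94.4% and 91.4% of the 32851 promoters in the table. Itga2 has 13 CpG pairs (more than 62.1% of promoters) and the Lamb3 start shown has 2 (more than 14.1%), against a median of 7. A second annotated Lamb3 start has 5. Both Lamb3 starts lie inside the span of the gene, 193294353 to 193343878 on the plus strand. The sequence at its outer 5′ end was therefore not examined. Of 4 motifs searched on both strands, the GC box GGGCGG was found 4 times in the Tns1 promoter, 4 times in that of Tns3 and 1 time in that of Itga2, and 35.7% of all promoters of this length hold it. The AP-1 motif TGANTCA (in 7.81% of promoters), the TEAD motif GGAATG (14.7%) and the ETS motif CCGGAA (14.9%) were in none of the 4 sequences shown, and no motif searched was in the Lamb3 sequence shown. The promoter of the second Lamb3 start, not shown, holds 1 TEAD match. The promoters of the annotated Itga3 starts, also not shown, hold an ETS match, an AP-1 match and GC boxes. These matches describe the letters and say nothing of which factors bind there.

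Among the tensins, Tns4 stood far higher in K-Ras Mll4-/- tumours, Tns3 was at much the same level in both groups, and Tns1 was somewhat lower. Tns4 (chromosome 11, 99065678 to 99089306, GRCm38) was at 72.8 and 79.99 CPM in the K-Ras Mll4-/- samples and at 4.51 and 5.40 CPM in the K-Ras samples. The groups were far apart relative to the spread within each, and the low K-Ras values rested on 138 and 195 reads. The log2 fold change was 3.94 (SE 0.17), or 15.4-fold. Tns1 (chromosome 1, 73910232 to 74124548) was at 497 and 480 CPM in K-Ras Mll4-/- and at 587 and 818 CPM in K-Ras tumours. Both K-Ras Mll4-/- samples lay below both K-Ras samples, but the K-Ras samples differed from each other by more than the lower of them did from the other group. Its log2 fold change was -0.52 (SE 0.22). Tns3 (chromosome 11, 8431652 to 8664758) was at 198 and 205 CPM in K-Ras Mll4-/- and at 174 and 211 CPM in K-Ras tumours, so the groups overlapped, with a log2 fold change of 0.06 (SE 0.16). The remaining family member, Tns2, was at 186 and 144 CPM against 245 and 363 CPM, a difference of -0.88 in log2 units (SE 0.26, edgeR adjusted p = 0.187), or -0.58 without K-Ras replicate 2.

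Tns4 was the only one of the 9 genes called in the fit across all genes (edgeR quasi-likelihood test, adjusted p under 0.05), in which 6 of 16001 genes, or 0.0375%, were called, all of them higher. Because the choice of genes used this contrast, nothing is read from that count. The size of the Tns4 difference ranged from 3.83 to 4.07 on the log2 scale over 13 alternative settings. The call itself was lost with limma-voom and when K-Ras Mll4-/- replicate 1, K-Ras Mll4-/- replicate 2 or K-Ras replicate 2 was left out, settings under which 0 genes of any kind were called. Without K-Ras replicate 1, Tns4 was called among 528 genes.

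**Figure D1:**
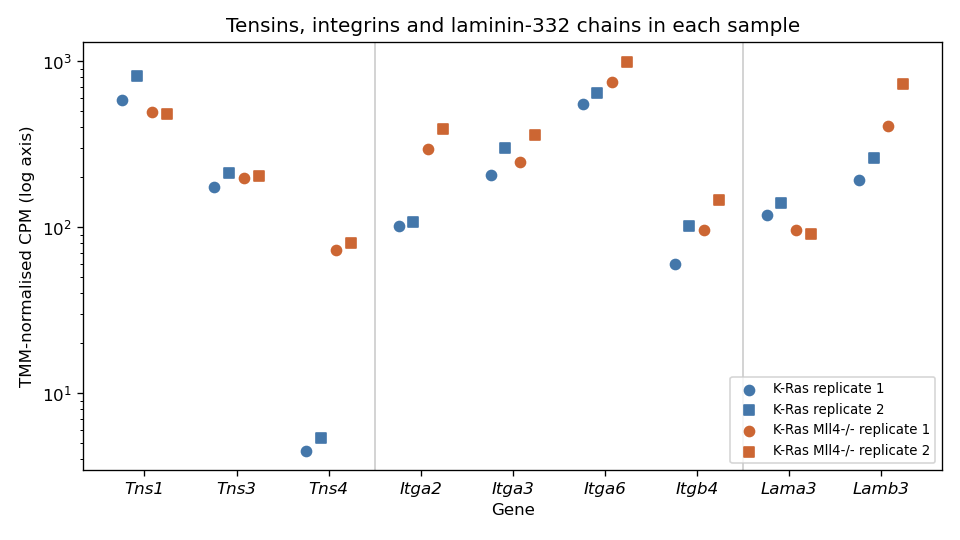
Expression of the 9 genes in each sample, as TMM-normalised CPM on a log axis; blue points are K-Ras and orange points K-Ras Mll4-/- samples, circles replicate 1 and squares replicate 2, with lines between tensins, integrins and laminin chains. Tns4 lies near 5 CPM in both K-Ras samples and above 72 CPM in both K-Ras Mll4-/- samples, while the points of Tns3, Itga3 and Itgb4 overlap between the groups.

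The tumour samples held several cell types, and in bulk RNA fewer cells of a type and less RNA per cell cannot be told apart. All 6 pan-epithelial markers (Epcam, Cdh1, Krt7, Krt8, Krt18 and Krt19) were higher in both K-Ras Mll4-/- samples, with a summed level of 4234 and 4604 CPM against 985 and 1733 CPM, and had reads in every library. The 8 endothelial markers summed to 4366 and 3439 CPM against 6960 and 6692 CPM, with 6 of 8 lower in both K-Ras Mll4-/- samples. Fibroblast markers summed to 838 and 853 CPM against 2468 and 1124 CPM, with 6 of 7 lower in both, and smooth muscle and pericyte markers to 216 and 183 CPM against 290 and 222 CPM, with 4 of 8 lower in both. All 7 ciliated markers were lower in both K-Ras Mll4-/- samples, with sums of 68.4 and 77.5 CPM against 129 and 765 CPM and a median log2 fold change of -2.38, and each had an unadjusted edgeR p under 0.05. All 5 club markers had a fitted value below 0, and 3 were lower in both K-Ras Mll4-/- samples. Mesothelial markers summed to 491 and 831 CPM against 93.3 and 205 CPM, with 2 of the 3 tested higher in both K-Ras Mll4-/- samples. Most of that sum was Krt19, which is also on the pan-epithelial list, at 370 and 609 CPM against 78.4 and 187 CPM. Msln was at 120 and 221 CPM against 13.8 and 17.0 CPM. Lrrn4, the remaining gene tested, overlapped between the groups, at 0.609 and 0.248 CPM against 0.654 and 0.470 CPM. Alveolar type 1 markers summed to 1831 and 1923 CPM against 1388 and 1840 CPM. Alveolar type 2 markers summed to 24710 and 26071 CPM against 18339 and 30169 CPM, and immune markers to 4854 and 3139 CPM against 4832 and 4479 CPM. The groups overlapped in each of these sums. In the alveolar type 1 list 4 of 8 were higher in both K-Ras Mll4-/- samples (Aqp5, Emp2, Rtkn2 and Akap5). Ager and Cav1 were lower in both. Of the alveolar type 2 markers 1 was higher and 1 lower in both, and of the 8 immune markers 1 was lower in both. Lyz2 made up most of the immune sum, at 4303 and 2822 CPM against 4173 and 4211 CPM. Cd68 was at 188 and 83.6 CPM against 237 and 48.1 CPM. Ptprc, the gene of CD45, was at 269 and 171 CPM in K-Ras Mll4-/- tumours against 274 and 143 CPM in K-Ras tumours (log2 fold change 0.08, SE 0.40, edgeR adjusted p = 0.930). In each group Ptprc was higher in replicate 1, as was the leukocyte integrin gene Itgb2, at 314 and 135 CPM against 368 and 97.3 CPM. None of the 72 marker genes tested was called (edgeR, adjusted p), and 33 had an unadjusted p under 0.05, against 21.8% of all genes tested. Over all genes tested, 29.9% were higher in both K-Ras Mll4-/- samples than in both K-Ras samples, and 28.5% were lower in both.

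The make-up of the tensin family was compared per length, as CPM per kilobase of merged GENCODE M21 exons. On this scale Tns1 and Tns2 were the most abundant tensins in K-Ras tumours, at 43.9 and 55.7 CPM per kilobase, followed by Tns3 at 17.2 and Tns4 at 0.959. In K-Ras Mll4-/- tumours Tns1 and Tns2 were at 30.5 and 30.3, Tns3 at 18.0 and Tns4 at 14.8 CPM per kilobase. Tns4 thus made up 0.891% and 0.759% of the tensin signal per kilobase in the K-Ras samples, and 14.5% and 17.2% in the K-Ras Mll4-/- samples. The share of Tns2 was 45.9% and 48.4% in K-Ras and 35.3% and 29.3% in K-Ras Mll4-/- samples, and that of Tns1 was 37.4% and 37.1% against 32.0% and 33.2%.

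Ratios of 2 genes within a library do not depend on how libraries are scaled. There were 7.15e-03 reads of Tns4 for each read of Tns1 in K-Ras tumours and 0.156 in K-Ras Mll4-/- tumours, as geometric means. The log2 ratio of Tns4 to Tns1 was -7.02 and -7.24 in the K-Ras samples and -2.77 and -2.59 in the K-Ras Mll4-/- samples, a difference of 4.45. The log2 ratio of Tns4 to Tns3 was -5.26 and -5.29 in K-Ras and -1.44 and -1.36 in K-Ras Mll4-/- samples, a difference of 3.88. Samples of one group lay close together in both ratios, and the groups did not overlap. The ratio of Tns3 to Tns1 differed less, by 0.57 on the log2 scale.

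**Figure D2:**
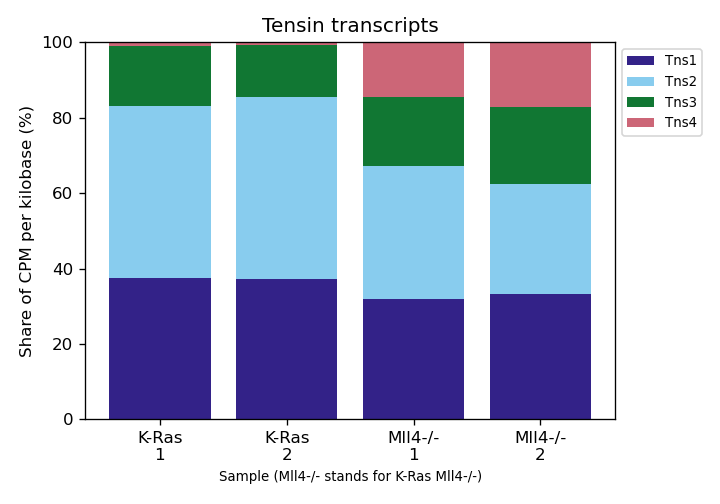
Shares of the tensin transcripts in each sample, in percent of the summed CPM per kilobase of merged exons; each bar is 1 sample and bars start at 0. The Tns4 part is a thin band in K-Ras samples (0.891% and 0.759%) and 14.5% and 17.2% in K-Ras Mll4-/- samples.

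Of the 4 integrin subunits, Itga2 was well above its K-Ras level in both K-Ras Mll4-/- samples, Itga6 was modestly above it, and Itga3 and Itgb4 overlapped between the groups. Itga2, which pairs with Itgb1 to form a receptor for collagen and laminin (chromosome 13, 114833081 to 114932100), was at 295 and 388 CPM in K-Ras Mll4-/- and at 102 and 107 CPM in K-Ras tumours. The K-Ras samples were close together and both lay far below the other group. The log2 fold change was 1.71 (SE 0.19), or 3.26-fold. Itga6, the laminin-binding subunit shared by receptors with Itgb1 and Itgb4 (chromosome 2, 71786886 to 71858427), was at 754 and 992 CPM against 555 and 641 CPM. Its groups did not overlap, yet the gap between them was smaller than the distance between the K-Ras Mll4-/- samples, and the log2 fold change was 0.55 (SE 0.22), or 0.33 without K-Ras Mll4-/- replicate 2. Itgb4, whose long cytoplasmic tail builds the hemidesmosome (chromosome 11, 115974725 to 116008412), was at 95.7 and 146 CPM against 59.8 and 102 CPM, a log2 fold change of 0.57 (SE 0.35). With 1 sample left out it ranged from 0.23 without K-Ras Mll4-/- replicate 2 and 0.24 without K-Ras replicate 1 to 1.00 without K-Ras replicate 2. In each group replicate 2 was the higher for Itgb4, as it was for Tns3, Tns4, Itga2, Itga3, Itga6 and Lamb3. For Tns1 and Lama3 it was the higher in K-Ras tumours and the lower in K-Ras Mll4-/- tumours. Exons of an antisense gene cover 7.66% of the merged exons of Itgb4, and with the strand setting unstated their reads cannot be told apart. Itga3, the partner of Itgb1 in the other laminin-332 receptor (chromosome 11, 95044475 to 95076844), was at 247 and 361 CPM against 205 and 302 CPM, a log2 fold change of 0.26 (SE 0.29).

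The balance between partner subunits was followed within libraries. Itgb1, the common beta subunit, was at 975 and 1118 CPM in K-Ras Mll4-/- and at 799 and 822 CPM in K-Ras tumours (log2 fold change 0.37, SE 0.18, edgeR adjusted p = 0.305). The log2 ratio of Itga2 to Itgb1 was -1.72 and -1.52 in K-Ras Mll4-/- samples and -2.96 and -2.94 in K-Ras samples, a difference of 1.33 with no overlap. By contrast the ratios of Itgb4 to Itga6, Itga3 to Itgb1 and Itga6 to Itgb1 overlapped between the groups, with differences of 0.06, -0.10 and 0.17 on the log2 scale. Per length, Itgb1 was the most abundant of these subunits in both groups, at 199 and 256 CPM per kilobase, and Itga6 stood at 66.3 and 96.7 in K-Ras and K-Ras Mll4-/- tumours. Itga3 was at 44.4 and 53.2 and Itgb4 at 11.6 and 17.2 CPM per kilobase. Itga2 was at 14.7 CPM per kilobase in K-Ras tumours, near the level of Itgb4, and at 47.9 in K-Ras Mll4-/- tumours, near that of Itga3.

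**Figure D3:**
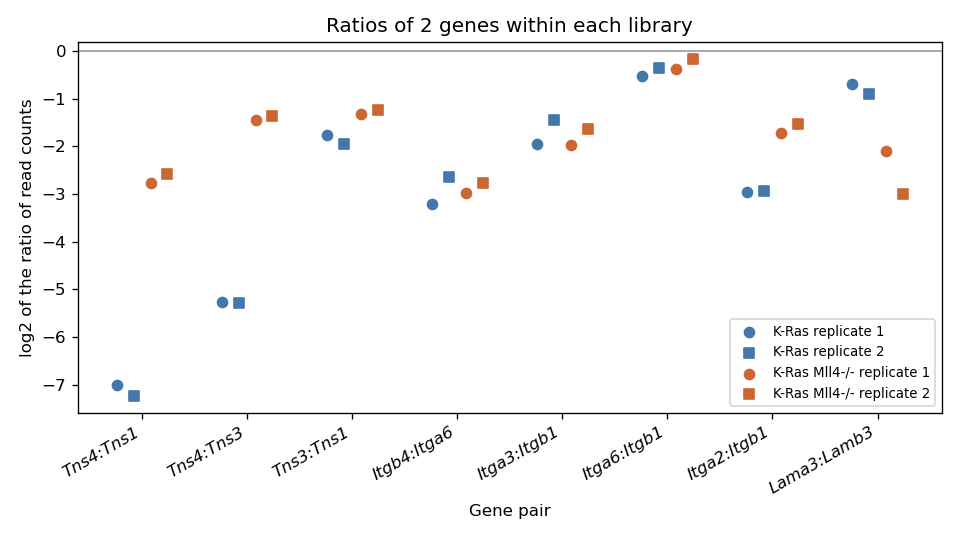
Ratios of the read counts of 2 genes within each library, as log2 after adding 0.5 to each count; colours and symbols mark group and replicate as given in the key. The pairs of Tns4 with Tns1 and Tns3 lie about 4 apart between the groups, the pair of Lama3 with Lamb3 lies lower in K-Ras Mll4-/- samples, and the pairs of Itgb4 with Itga6, Itga3 with Itgb1 and Itga6 with Itgb1 overlap.

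The laminin-332 chains Lamb3 and Lama3 did not share one direction. Lamb3 (chromosome 1, 193294353 to 193343878) was at 409 and 730 CPM in K-Ras Mll4-/- and at 192 and 262 CPM in K-Ras tumours, a log2 fold change of 1.33 (SE 0.35). K-Ras Mll4-/- replicate 2 stood out as the highest value, and without it the log2 fold change was 0.84. Lama3 (chromosome 18, 12333417 to 12583013) went the other way, with 96.0 and 90.7 CPM in K-Ras Mll4-/- against 118 and 141 CPM in K-Ras tumours, a log2 fold change of -0.47 (SE 0.14). Both K-Ras Mll4-/- samples were below both K-Ras samples.

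Within libraries the log2 ratio of Lama3 to Lamb3 was -0.70 and -0.90 in K-Ras samples and -2.09 and -3.01 in K-Ras Mll4-/- samples, so the groups did not overlap although the K-Ras Mll4-/- samples differed widely. Lama3 has a long and a short transcript form that share their 3′ exons, and counts per gene do not separate them.

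**Figure D4:**
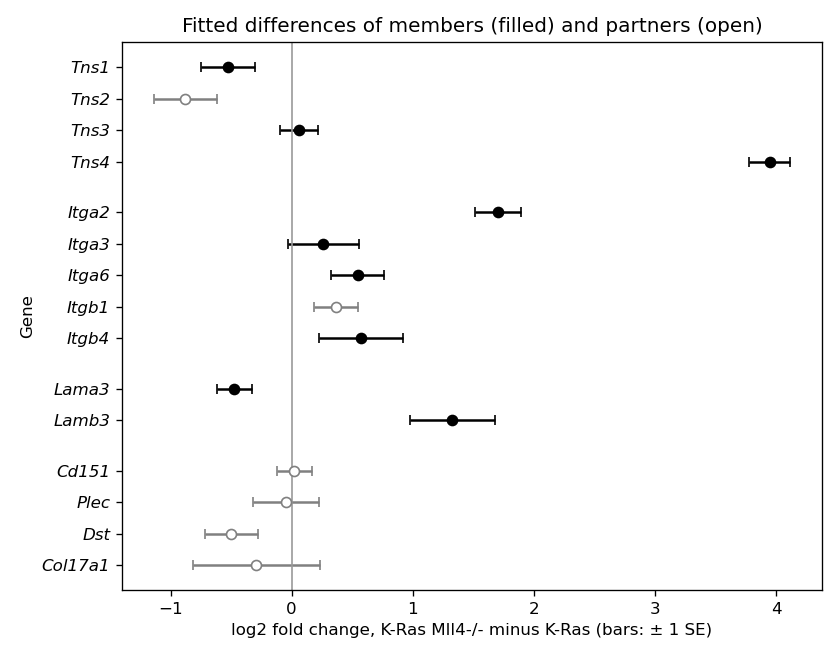
Fitted log2 fold changes, K-Ras Mll4-/- minus K-Ras, with bars of 1 SE from the edgeR fit on 2 samples a group; filled points are the 9 chosen genes and open points their direct partners. Tns4 stands at 3.94, Itga2 and Lamb3 lie at 1.71 and 1.33, and Lama3, Tns1 and Tns2 lie below 0.

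Across the 9 genes, 4 were higher in both K-Ras Mll4-/- samples than in both K-Ras samples (Tns4, Itga2, Itga6 and Lamb3), 2 were lower in both (Tns1 and Lama3), and 3 overlapped. Over all genes tested, the groups did not overlap for 58.3%, with 29.9% higher and 28.5% lower. Without K-Ras replicate 2, the sample rich in airway markers, the log2 fold changes were 4.07 for Tns4, 1.73 for Itga2, 1.56 for Lamb3, 1.00 for Itgb4, 0.64 for Itga6, 0.55 for Itga3, 0.20 for Tns3, -0.28 for Tns1 and -0.36 for Lama3. All 9 kept their sign, and the largest shift was in Itgb4. The median log2 fold change was 0.55 over the 9 genes and -0.01 over all genes. With 2 samples in each group the smallest two-sided p of an exact permutation test is 0.333, so none was used for single values.

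The wider adhesion machinery was read from 7 lists of 87 genes that hold none of the 9. By the edgeR quasi-likelihood test 0 of the 87 were called, against 0.0375% of all genes tested. With limma-voom 0 genes of any kind were called, so its 0 of the 87 says nothing about these lists. At an unadjusted edgeR p under 0.05 there were 13 higher and 17 lower, or 34.5% of the lists against 21.8% of all genes tested (11.4% higher and 10.4% lower). DESeq2, which called 10% of all genes, called 10 of the 87 higher and 9 lower.

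Among 22 other integrin subunits, 2 had an unadjusted edgeR p under 0.05 with a higher value and 5 with a lower one, and the median log2 fold change was -0.16. Itgb6, the epithelial beta subunit that pairs with Itgav to activate TGF-beta, was at 158 and 190 CPM in K-Ras Mll4-/- and at 63.6 and 49.9 CPM in K-Ras tumours (log2 fold change 1.62, SE 0.19, edgeR adjusted p = 0.125). Its partner Itgav differed by 0.53 in log2 units (SE 0.15, edgeR adjusted p = 0.181). Itgb3, another Itgav partner, found on platelets and endothelium, was at 75.8 and 66.4 CPM against 152 and 110 CPM (log2 fold change -0.88, SE 0.20, edgeR adjusted p = 0.163). Of these 3, Itgb6 was the farthest outside the spread between samples.

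Of 8 other laminin chains, 0 were higher and 3 lower at an unadjusted edgeR p under 0.05, with a list median of -0.14. Lama2, a chain of muscle and mesenchymal basement membranes, was at 47.2 and 42.1 CPM in K-Ras Mll4-/- against 70.1 and 71.4 CPM (log2 fold change -0.67, SE 0.13, edgeR adjusted p = 0.147). Lamc3 was at 16.3 and 17.2 CPM against 28.5 and 54.8 CPM (log2 fold change -1.31, SE 0.34, edgeR adjusted p = 0.177), and differed by -0.78 in log2 units without K-Ras replicate 2. Lama1, an alpha chain of early basement membranes, was at 46.0 and 52.6 CPM against 112 and 73.5 CPM (log2 fold change -0.91, SE 0.24, edgeR adjusted p = 0.177), and differed by -0.57 without K-Ras replicate 1. Of 14 other basement membrane genes, 1 was higher and 3 lower at that level, with a median of -0.27. The higher one was Col18a1, whose collagen is the source of endostatin, at 883 and 1143 CPM against 174 and 157 CPM. Its fitted difference of 2.61 in log2 units (SE 0.22), 6.11-fold, was the nearest to a call among the 87 genes, at an edgeR adjusted p of 0.0884. Bmp1, a protease that trims laminin-332 chains, and Nid1, the linker nidogen, differed by -0.58 (SE 0.16, edgeR adjusted p = 0.177) and -0.45 (SE 0.15, edgeR adjusted p = 0.202) on the log2 scale.

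Hemidesmosome partners differed in direction. Cd151, a tetraspanin bound to laminin-binding integrins, was at 182 and 194 CPM against 171 and 199 CPM (log2 fold change 0.02, edgeR adjusted p = 0.944). Its sign turned under upper quartile and total count scaling. Plec, the plectin that links Itgb4 to keratin, differed by -0.05 in log2 units (SE 0.27, edgeR adjusted p = 0.938), and Dst, its fellow plakin, by -0.50 (SE 0.22, edgeR adjusted p = 0.268), or -0.33 without K-Ras replicate 2. Col17a1, the hemidesmosomal collagen, was scarce, with 35 to 86 reads in each library. Lad1, the basement membrane component ladinin, was at 77.5 and 127 CPM against 24.5 and 29.1 CPM (log2 fold change 1.93, SE 0.29, edgeR adjusted p = 0.138). Krt14, a basal cell keratin, had 0 and 2 reads in K-Ras and 185 and 1119 in K-Ras Mll4-/- libraries, so no fold is given (edgeR adjusted p = 0.138).

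Markers of basal airway cells were read beside these values. Their summed level was 30.1 and 126 CPM in K-Ras Mll4-/- and 2.88 and 9.05 CPM in K-Ras tumours, and was carried by Krt14 and by Trp63, at 18.5 and 88.6 CPM against 1.60 and 4.48 CPM. Krt5, a defining basal keratin, stayed between 0.262 and 2.06 CPM, and 4 of the 5 basal markers had reads in every library, Krt14 being at 0 in K-Ras replicate 1. In K-Ras Mll4-/- tumours Krt14 and Trp63 were higher in replicate 2 than in replicate 1, as were Lamb3 and Lad1. That order was not particular to them. It was shared by Tns3, Tns4, Itga2, Itga3, Itga6 and Itgb4, whereas Tns1 and the other laminin chain, Lama3, were lower in replicate 2. The other 3 basal markers, Krt5, Krt15 and Ngfr, were also lower in replicate 2 (0.621, 0.931 and 1.09 CPM) than in replicate 1 (2.06, 1.22 and 1.29 CPM). The part of basal-like expression in the laminin values was not tested.

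Receptors for laminin other than integrins were all above 0 on the log2 scale (6 of 6, median 0.48, against -0.01 over all genes), and 3 had an unadjusted edgeR p under 0.05. Sdc1, the epithelial syndecan, was at 1009 and 1461 CPM against 431 and 577 CPM (log2 fold change 1.29, SE 0.28, edgeR adjusted p = 0.157). Cd44, the hyaluronan receptor, differed by 0.67 in log2 units (SE 0.22, edgeR adjusted p = 0.199), or 0.44 without K-Ras replicate 2. Rpsa, at 0.73 (SE 0.23, edgeR adjusted p = 0.191), is also a ribosomal protein gene with many processed copies, so its count is uncertain.

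The core of the focal adhesion was split, with 10 genes above 0 and 9 below on the log2 scale. Of these 19, 4 were higher and 4 lower at an unadjusted edgeR p under 0.05, with a median of 0.12. Zyx, the zyxin of mature adhesions, was at 187 and 205 CPM against 127 and 108 CPM (log2 fold change 0.74, SE 0.15, edgeR adjusted p = 0.153). Parvb and Lims2, isoforms of the complex that ties integrin-linked kinase to actin, differed by -0.82 (SE 0.16, edgeR adjusted p = 0.150) and -1.21 (SE 0.32, edgeR adjusted p = 0.177) on the log2 scale. Without K-Ras replicate 2 the value of Lims2 was -0.75. Among 10 tensin partners, Met, the hepatocyte growth factor receptor, which binds Tns4, was at 187 and 237 CPM against 89.4 and 139 CPM (log2 fold change 0.89, SE 0.27, edgeR adjusted p = 0.189). Dlc1, a protein bound by tensins, was at 328 and 267 CPM against 407 and 468 CPM (log2 fold change -0.55, SE 0.19, edgeR adjusted p = 0.205).

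The 5 genes named here had the pattern most like that of Tns4, by the Euclidean distance between log2 CPM centred on each gene's mean over the 4 samples. They were Tpd52l1 (distance 0.195), B4galt6 (0.279), Ank1 (0.334), Nrn1 (0.379) and Clec2f (0.397). With 4 samples this measure mostly sorts genes by the size of one difference between the groups. Nrn1 was at 125 and 135 CPM in K-Ras Mll4-/- and at 10.1 and 12.0 CPM in K-Ras tumours, and B4galt6 at 109 and 95.1 CPM against 6.54 and 8.14 CPM.

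The chosen genes were also set against the marker lists within each library. The 6 pan-epithelial markers did not move alike, with log2 fold changes from 0.87 for Epcam to 2.51 for Krt7. The 8 endothelial markers ran from -1.20 for Vwf to 0.19 for Emcn. Differences from a list mean therefore depend on which markers it holds. Relative to the mean log2 level of the 6 pan-epithelial markers, Tns4 was still higher in K-Ras Mll4-/- tumours, by 2.25 on the log2 scale, with no overlap. On that scale Itga2 differed by 0.00 and Lamb3 by -0.40, each with overlapping groups. The others lay lower in K-Ras Mll4-/- tumours without overlap, Itgb4 by -1.09, Itga6 by -1.15, Itga3 by -1.43, Tns3 by -1.62, Lama3 by -2.16 and Tns1 by -2.19. Relative to the 8 endothelial markers, Tns1, Tns2 and Lama3 differed by 0.15, -0.21 and 0.18, with overlapping groups. The others lay higher in K-Ras Mll4-/- tumours on the endothelial scale without overlap, Tns3 by 0.72, Itga3 by 0.91, Itga6 by 1.19, Itgb4 by 1.24, Lamb3 by 1.93, Itga2 by 2.34 and Tns4 by 4.58. For Tns1, Tns2 and Lama3 the 2 K-Ras samples differed from each other on this scale by more than the group means did. Setting the genes against these 2 lists was decided after the values were seen.

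**Figure D5:**
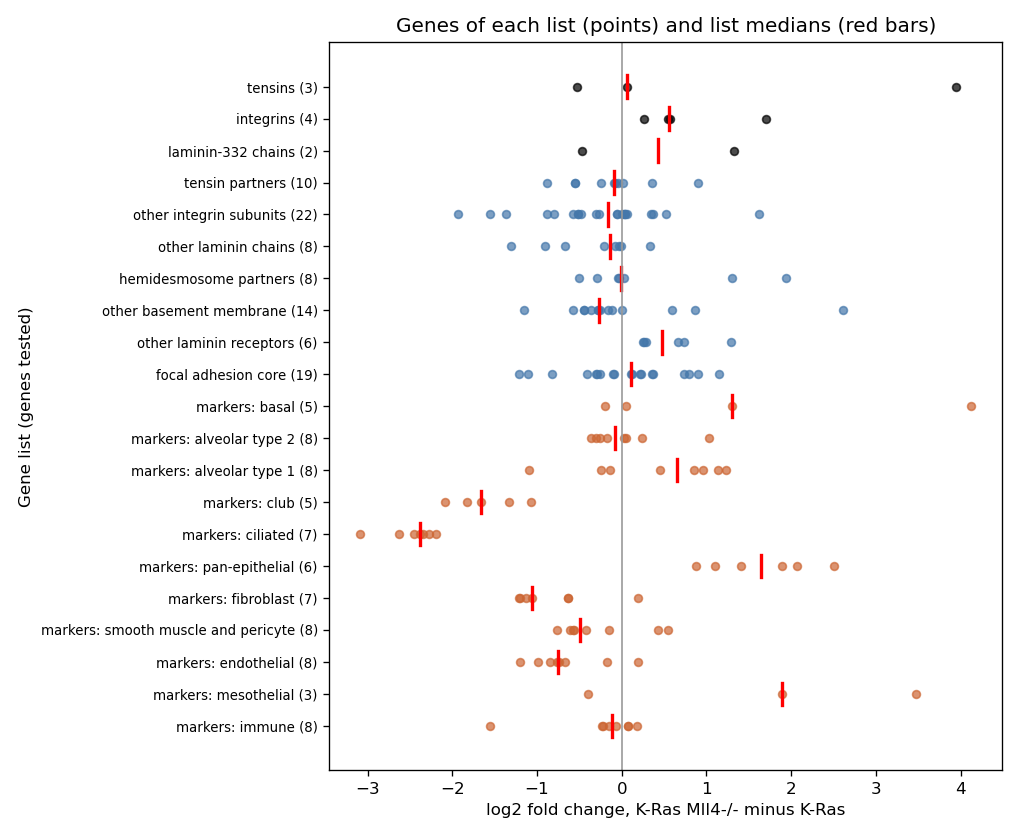
Log2 fold changes, K-Ras Mll4-/- minus K-Ras, of the genes of each list (points; black for the 9 chosen genes, blue for other adhesion genes, orange for cell type markers), with the list median as a red bar and the number of genes tested in brackets. The point of Krt14 is left out because the K-Ras samples held 0 and 2 reads of it. The medians and bracketed numbers of the basal and hemidesmosome lists still include Krt14. The pan-epithelial points all lie above 0 and most endothelial and fibroblast points below.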

How the data were processed

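RNA from 4 CD45-depleted mouse lung tumour samples was sequenced on an Illumina HiSeq, per the labels' protocols. The authors deposited 1 file per sample of unnormalised read counts for each gene symbol, with the closing lines of HTSeq. CASAVA 1.4, STAR, HTSeq and the build mm9 are named in the submitters' processing notes, without roles or settings, and the annotation and strand setting are not given in the sources used here. The 5 closing tally lines, which name no gene, held 60.1% to 65.6% of each file's total and were left out. Reads aligned to more than 1 place were among them, which lowers the counts of genes with close copies.

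Counts were fitted with edgeR 4.0.16 in R 4.3.3 over all 4 samples (filterByExpr defaults, TMM scaling, robust quasi-likelihood test, Benjamini-Hochberg adjustment over 16001 genes, threshold 0.05). CPM are TMM-normalised, and 3 reads, the floor for detection, correspond to 0.083 to 0.114 CPM, for counting error only. The SE of a log2 fold change is its size over the square root of the F statistic. Ratios within a library used counts plus 0.5, and the log2 CPM behind distances and marker-relative values a prior count of 2. Positions and promoters are from RefSeq on GRCm38.p6 and lengths from GENCODE M21, matched by symbol, and may not match the authors' build. Of the list genes 1 had no row in the files, and Erbin was read under its older symbol Erbb2ip.

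The 9 genes and all lists were chosen with earlier results of these data known. Named besides them were their direct partners, Kmt2d, Ptprc, the 3 genes of each adhesion list with the smallest p, and the 5 genes most like Tns4. A further gene of the lists is not reported here, and the list counts leave it out. Krt5, Krt15, Ngfr, Trp63, Itgb2 and the other markers given singly were named after their values were seen. Alternatives tried were limma-voom (limma 3.58.1), DESeq2 1.42.0, a likelihood ratio test in edgeR, different scalings and count filters, a block for the replicate number, and each sample left out. The fits were also run on simulated counts in which every gene had the same spread between samples beyond counting error. That run does not measure error rates in these data.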

Additional observations from a re-analysis of the deposited data

How the results depend on the processing

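Against 6 called genes (0.0375% of 16001), of which 1 was among the 9 chosen, other scalings and the filter on 1 CPM gave 5 to 7 genes and the same 1. These were 0.0312% to 0.0437% of the genes tested in each setting. Without a filter beyond 1 read 44 of 19951 genes (0.221%) were called. DESeq2 called 1601 genes (10% of those tested) and 3 of the 9 (Tns4, Itga2 and Lamb3). The edgeR likelihood ratio test called 1503 genes (9.39%) and the same 3, and limma-voom 0 and 0. With 1 sample left out, the counts ranged from 0 to 528 genes and from 0 to 1 of the 9, and all but the fit without K-Ras replicate 1 gave 0. Such fits keep a lone sample in one group, assumed to vary like the other.

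The labels number replicates 1 and 2 in both groups without saying what same-numbered samples share. Deviations of same-numbered samples correlated at 0.21 across genes. A block for the replicate number gave 217 called genes (1.36% of those tested), among them 2 of the 9, Tns4 and Itga2, and of the 87 other adhesion genes Col18a1, Krt14 and Lad1.

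Of 117 values of the 9 genes under the alternative settings, 106 kept both direction and side of the threshold. With single samples left out, Tns3 ranged from -0.066 to 0.20, Itga3 from -0.046 to 0.55, Col17a1 from -0.72 to 0.27, Plec from -0.31 to 0.27, Cd151 from -0.078 to 0.12 and Ptprc from -0.33 to 0.63 on the log2 scale, each across 0. Cd151 was at -0.034 with upper quartile and at -0.027 with total count scaling. Relative to the pan-epithelial markers, a scale added after seeing the data, the sign turned for Tns3 (-1.62), Itga3 (-1.43), Itga6 (-1.15), Itgb4 (-1.09) and Lamb3 (-0.40). Relative to the endothelial markers it turned for Tns1 (0.15) and Lama3 (0.18). Within-library ratios kept their difference to within the spread between samples under both prior counts. With single samples left out, those of Itgb4 to Itga6 (-0.23 to 0.34) and Itga3 to Itgb1 (-0.36 to 0.15) crossed 0. Of the 5 genes most like Tns4, 4 were shared with a prior count of 0.5. Depth was ample for all 9 genes, Tns4 having the fewest reads, 138 in K-Ras replicate 1.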
